A study of Mus musculus with 84 samples.

Results

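Granulocyte-monocyte progenitors (GMPs) of newborn mice that carry the MLL-ENL transgene were compared with the committed hematopoietic progenitor cells (HPCs) under the same identifiers, across all mouse genes. The comparison held 8 of the 84 RNA sequencing libraries of the series, 4 GMP and 4 HPC libraries, taken by their labels and paired by the identifiers M2, M3, M4 and M5. All 8 were prepared from neonatal liver at postnatal day 0 without doxycycline and are labelled as fetal induction of a tetracycline-regulated transgene that encodes human MLL-ENL. Set beside them were 4 libraries of MLL-ENL pre-granulocyte-monocyte progenitors (pGMs) with the same identifiers. The control side held 4 HPC, 3 pGM and 4 GMP libraries of wild type newborns, also day 0 liver without doxycycline, under the identifiers W2 to W5. The sorting gates, the promoter that drives the transgene and the number of animals per identifier are not stated in the labels. Where nothing says that identifiers are separate animals, the p-values measure only the spread between these samples.

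HPCs are an early progenitor pool that still holds stem-cell-associated transcription and can give rise to several lineages. pGMs and GMPs are successive steps toward granulocytes and monocytes, and GMPs begin to make the enzymes that are packed into the granules of neutrophils. The transcription factors PU.1 and the C/EBP family drive this path, while HOXA proteins, MEIS1 and MECOM are associated with stem and early progenitor cells. MLL-ENL is a fusion of the histone methyltransferase MLL with the elongation factor subunit ENL that occurs in acute leukemia and is known for keeping HOXA genes and MEIS1 active.

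The 23 newborn libraries held 10749344 to 18618130 mouse gene counts, with a median of 13962515. The 10 highest genes took 5.93 to 6.35% of the counts in the MLL-ENL HPC libraries and 10.2 to 16.5% in the MLL-ENL GMP libraries. The first principal component of the 8 libraries held 85.0% of the variance and separated GMPs from HPCs. The second, with 5.22%, set both M2 libraries apart, so results that rest on M2 are given with and without it. The sum of secondary granule genes was 4998 CPM in the M2 GMP library and 25870 to 43020 CPM in the other MLL-ENL GMP libraries. Control W2 was shifted alike, at 4060 CPM against 13190 to 33700 CPM in the other control GMP libraries. Mitochondrial counts made up 2.904% in the M2 GMP library, 2.472% in the W2 GMP library and 0.391 to 1.63% in the other GMP libraries. W2 as a whole was not left out of any fit. Xist and the Y-linked Ddx3y were both present in every library of 3 of the 4 MLL-ENL identifiers, and the labels do not say whether newborns were pooled. Antigens commonly used to sort these cells are no finding. Of 11 tested, 4 were higher in GMPs and 7 lower, Kit and Cd34 among the lower. Fcgr3, which encodes the low-affinity IgG receptor CD16, was at 7.47 ± 1.41 CPM in HPCs and 939 ± 185 CPM in GMPs (SD, n = 4 each). Ly6a, which encodes Sca-1, was at 169 ± 82.3 and 2.51 ± 1.1 CPM. CPM values are counts scaled to library size, here by TMM, unless stated otherwise. In the fit across genes, fold changes are log2 of GMP over HPC within identifiers. Adjusted p is Benjamini-Hochberg over 14447 genes from edgeR's quasi-likelihood test. The value after ± on a log2 scale is an approximate standard error (SE). It is the absolute log2 value divided by the square root of that test's F statistic.

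The human transgene was lower in GMPs than in HPCs. Counts on human KMT2A and human MLLT1 together gave 21.1, 15.2, 12.95 and 12.94 CPM of mouse counts, without TMM scaling, in the HPC libraries of M2, M3, M4 and M5, and 8.0, 3.07, 3.16 and 5.89 in the GMP libraries. The groups did not overlap, and the 4 pGM libraries, at 8.76 to 11.7, lay between them. The means were 15.6 ± 3.87 in HPCs, 10.6 ± 1.4 in pGMs and 5.03 ± 2.38 in GMPs (SD, n = 4 each), and no control group exceeded a mean of 0.303. The HPC mean was 3.09 times the GMP mean, with an exact two-sided permutation p = 0.0286, the smallest that 4 against 4 allows. All 4 pairs had the lower value in GMPs, for which sign flips of the pairs give an exact p = 0.125, the smallest that 4 pairs allow. Mouse Kmt2a, the endogenous counterpart, also fell, by 0.98 ± 0.18 on the log2 scale (edgeR adjusted p = 0.00018), while mouse Mllt1 gave a log2 fold change of 0.30 ± 0.22 (edgeR adjusted p = 0.26). In controls, without TMM scaling, mouse Kmt2a was at 27.21 to 53.94 CPM in HPCs and 15.47 to 37.93 CPM in GMPs.

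**Figure D1:**
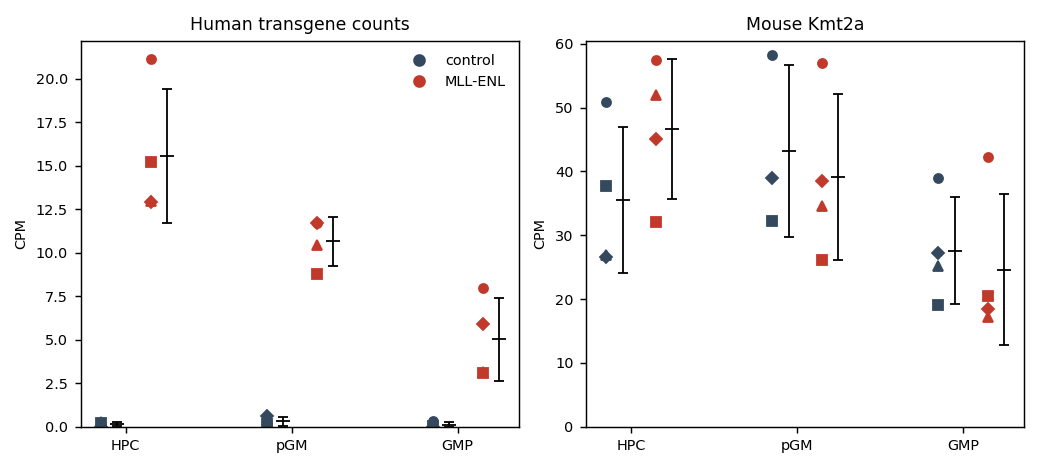
Human transgene in CPM of mouse counts (left) and mouse Kmt2a in TMM-scaled CPM (right) in newborn HPC, pGM and GMP libraries of control (dark) and MLL-ENL (red) mice; symbols are identifiers 2 to 5 and bars are mean ± SD. The transgene means in MLL-ENL cells step down from 15.6 through 10.6 to 5.03, and control libraries sit near 0.

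Neutrophil granule genes formed the strongest block of rising transcripts by their medians, together with genes of mast cells, basophils and eosinophils. Stem, HOX, dendritic, lymphoid and interferon-response genes fell. Some genes stand in several lists, so the lists are not independent. Flt3 is in the stem, fusion target, dendritic and cytokine receptor lists, and Ccr9 in the dendritic and lymphoid lists. Mecom, Meis1 and Hoxa9 are in both the stem and the fusion target list. Of the 14447 genes tested, 4089 were higher in GMPs (28.3%) and 3811 lower (26.4%), and the median log2 fold change of all genes was 0.01. Which direction held more calls depended on the processing. The higher share of the calls was 51.8% here, 47.8% with RLE scaling, 47.9% with DESeq2 and 46.2 to 52.3% over all alternatives. With a change of at least 2-fold required as well, 11.2% were higher and 16.6% lower. RNA of sorted populations does not tell fewer cells of a type apart from less RNA per cell.

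**Figure D2:**
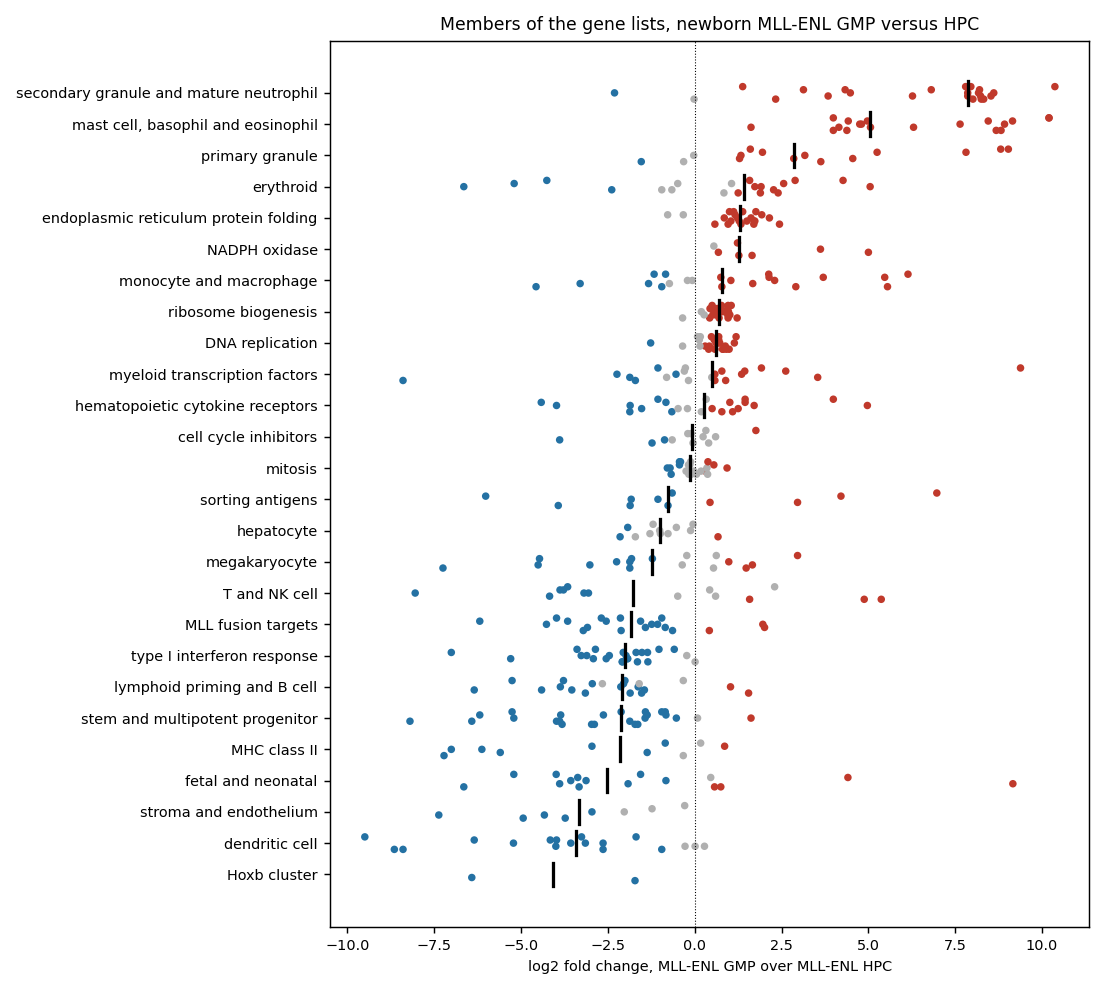
Log2 fold change of GMP over HPC in MLL-ENL newborns for every tested member of the 26 gene lists; each point is a gene, red rose, blue fell, grey did not pass the test, and black ticks are list medians. Medians run from -4.07 for the 2 tested Hoxb genes to 7.86 for secondary granule genes, against 0.01 over all genes.

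The promoters below belong to granule genes whose transcripts rose in MLL-ENL GMPs, and they are shown because PU.1 and C/EBP proteins are known regulators of these genes. All are RefSeq sequences of GRCm38.p6, written 5′ to 3′ from 250 bases before to 50 bases after the annotated start. In the primary granule promoters, capitals mark the PU.1-type motif GAGGAA, searched on both strands.
Elane promoter, chr10:79886062-79886361, plus strand: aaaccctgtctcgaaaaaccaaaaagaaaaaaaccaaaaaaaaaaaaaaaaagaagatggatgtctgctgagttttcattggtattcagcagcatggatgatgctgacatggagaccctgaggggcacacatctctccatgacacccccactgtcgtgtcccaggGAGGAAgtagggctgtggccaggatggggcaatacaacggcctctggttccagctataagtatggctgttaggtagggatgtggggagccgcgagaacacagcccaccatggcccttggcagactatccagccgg
Prtn3 promoter, chr10:79879417-79879716, plus strand: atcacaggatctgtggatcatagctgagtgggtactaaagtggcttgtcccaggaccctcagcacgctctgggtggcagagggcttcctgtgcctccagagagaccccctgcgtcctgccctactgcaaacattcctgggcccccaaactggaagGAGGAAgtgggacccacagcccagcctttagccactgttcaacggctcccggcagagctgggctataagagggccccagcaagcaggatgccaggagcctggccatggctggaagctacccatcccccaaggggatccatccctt
Mpo promoter, chr11:87793534-87793833, plus strand: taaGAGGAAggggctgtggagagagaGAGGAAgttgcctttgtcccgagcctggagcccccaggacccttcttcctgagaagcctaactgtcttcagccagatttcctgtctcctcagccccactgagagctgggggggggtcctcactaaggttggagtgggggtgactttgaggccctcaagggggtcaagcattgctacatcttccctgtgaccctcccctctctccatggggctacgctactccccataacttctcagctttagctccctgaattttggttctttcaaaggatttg
Ctsg promoter, chr14:56102525-56102824, minus strand: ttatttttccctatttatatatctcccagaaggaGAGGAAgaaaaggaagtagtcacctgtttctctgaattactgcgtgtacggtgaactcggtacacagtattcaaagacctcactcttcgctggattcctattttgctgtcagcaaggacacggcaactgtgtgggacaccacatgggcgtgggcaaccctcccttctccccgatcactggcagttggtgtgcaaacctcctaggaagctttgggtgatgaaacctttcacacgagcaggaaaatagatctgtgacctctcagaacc
In the next pair, capitals mark the C/EBP-type motif TTGCNNAA, also searched on both strands.
Ngp promoter, chr9:110419558-110419857, plus strand: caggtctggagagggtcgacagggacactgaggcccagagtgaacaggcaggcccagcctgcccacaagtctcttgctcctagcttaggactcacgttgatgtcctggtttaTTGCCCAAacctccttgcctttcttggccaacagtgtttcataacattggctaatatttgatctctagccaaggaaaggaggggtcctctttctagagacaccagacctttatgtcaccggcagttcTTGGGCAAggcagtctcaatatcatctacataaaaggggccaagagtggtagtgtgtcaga
Fcnb promoter, chr2:28084829-28085128, minus strand: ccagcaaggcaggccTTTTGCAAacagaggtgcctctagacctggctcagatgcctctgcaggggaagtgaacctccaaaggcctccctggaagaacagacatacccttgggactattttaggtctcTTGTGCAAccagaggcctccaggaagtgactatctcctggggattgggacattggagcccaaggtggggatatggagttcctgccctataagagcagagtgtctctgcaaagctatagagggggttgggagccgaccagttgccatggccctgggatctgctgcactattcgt

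Of 27025 genes with a promoter sequence, 31.3% had GAGGAA in any of their promoters. The same held for 9 of 12 primary granule genes and 11 of 21 secondary granule genes. The match began 85 bases before the start in Elane and 95 bases before it in Prtn3. In Mpo and Ctsg the matches lay further out, at positions -247 and -224 in Mpo and -216 in Ctsg. TTGCNNAA stood in any promoter of 12.2% of all these genes, of 10 of 21 secondary granule genes and of 2 of 12 primary granule genes. These matches describe the letters in the window, and binding was not measured.

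Primary (azurophil) granule genes, which encode the first enzymes packed by immature neutrophils, rose in 12 of 15 members, with 1 lower and a median log2 fold change of 2.85. Elane encodes neutrophil elastase and was at 5.54, 18.0, 31.8 and 16.2 CPM in the HPC libraries of M2 to M5 and at 3110, 20700, 7660 and 10700 CPM in the GMP libraries. No GMP library came near an HPC library, and M2 was lowest in both populations. Its log2 fold change was 9.03 ± 0.70 (edgeR adjusted p = 6.9e-09). Mpo, myeloperoxidase, was already transcribed in HPCs, at 604, 1230, 1130 and 1470 CPM, and reached 25600, 67500, 32800 and 47600 CPM in GMPs. M2 was again lowest on both sides of that step of 5.25 ± 0.25 (edgeR adjusted p = 1.7e-11). Ctsg (cathepsin G) rose by a log2 fold change of 7.81 ± 0.44, Prtn3 (proteinase 3) by 3.17 ± 0.20 and Cst7 (cystatin F, a protease inhibitor) by 4.55 ± 0.17. Ms4a3, a membrane protein gene used to trace GMP progeny, went from 1.92 ± 1.43 to 825 ± 313 CPM (SD, n = 4 each). The member that fell was Bpi, a bactericidal protein gene, from 3.81 ± 0.867 to 1.37 ± 0.596 CPM.

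Secondary granule and mature neutrophil genes, which follow later in granulocyte maturation, rose in 21 of 23 tested members with a median of 7.86, and 1 fell. Ngp, a granule protein gene of the cathelicidin family named here after its values were seen, was at 2.43, 35.3, 23.1 and 30.3 CPM in HPCs and at 625, 13400, 7440 and 9170 CPM in GMPs. The M2 GMP library held far less than the other GMP libraries and still lay above every HPC library. S100a9, a subunit of calprotectin, showed the same order, with 391 CPM in the M2 GMP library and 2620 to 4500 CPM in the other GMP libraries. Its log2 fold change was 8.23 ± 0.53 (edgeR adjusted p = 6.8e-10). Fcnb (ficolin B, a lectin) rose by 8.53 ± 0.52, Wfdc21 by 8.17 ± 0.47, Olfm4 (olfactomedin 4, a secondary granule protein) by 7.86 ± 0.45 and Hp (haptoglobin) by 7.86 ± 0.47. Padi4, which encodes the enzyme that citrullinates histones in neutrophils, fell from 45.7 ± 6.28 to 9.73 ± 4.59 CPM. Retnlg, a resistin-like gene of neutrophils, had no count in any of the 4 HPC libraries and 3.95 to 16.0 CPM in GMPs, at least 264-fold higher when 3 counts over the HPC group are taken as the floor.

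**Figure D3:**
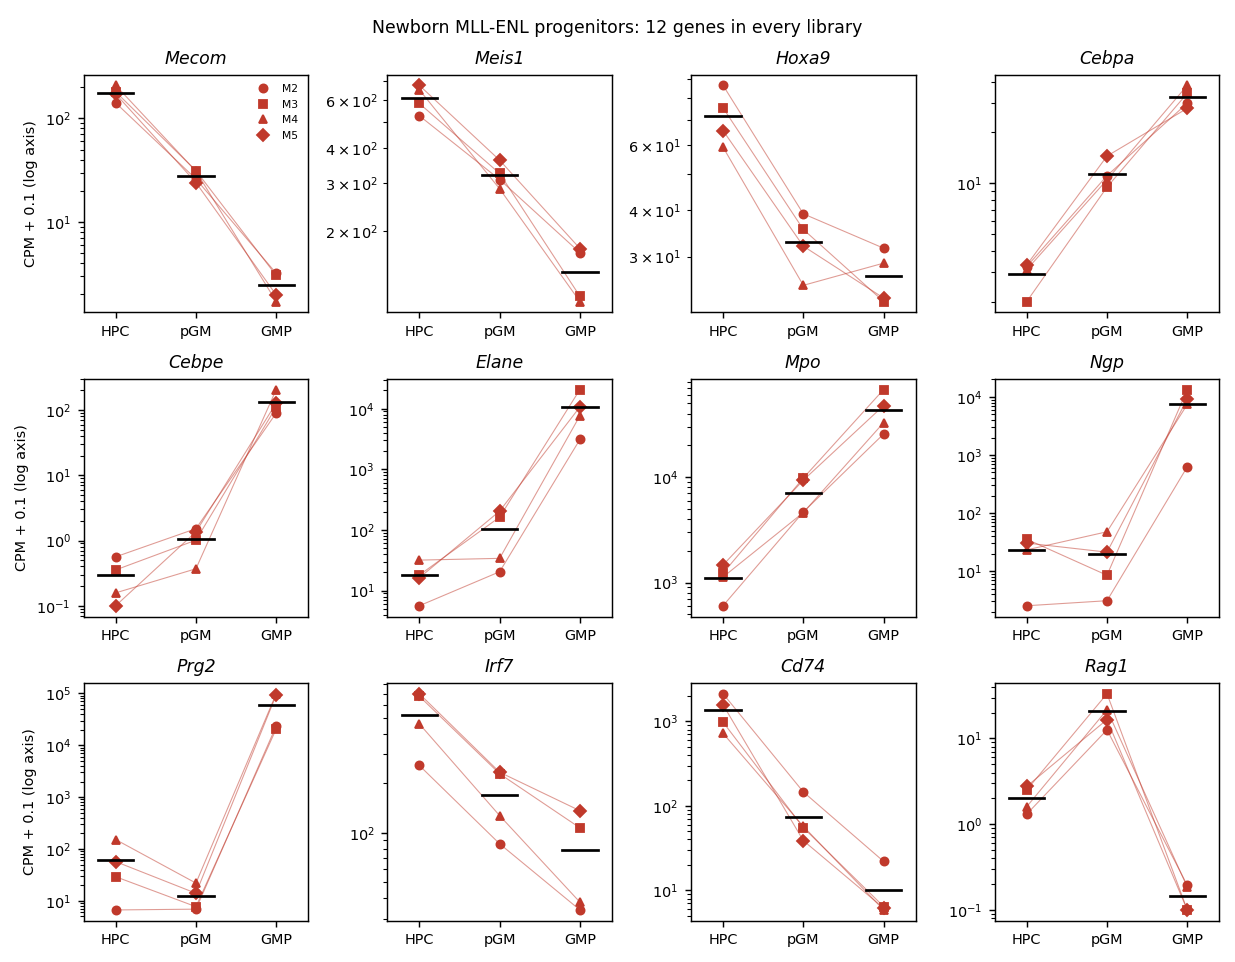
CPM plus 0.1 on a log axis of 12 genes in each MLL-ENL HPC, pGM and GMP library; lines join the libraries of one identifier and black bars are means. Mecom falls at each step, Elane and Mpo rise at each step, Ngp and Prg2 rise only between pGM and GMP means, and Rag1 has its highest mean in pGMs.

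The transcription factors of the path changed in parts. Of 21 tested myeloid factors, 10 rose and 6 fell, with a median of 0.49. Cebpe, the C/EBP member of late granulocyte maturation, was at 0.462, 0.254, 0.0576 and 0.0 CPM in HPCs and at 90.0, 111, 206 and 128 CPM in GMPs, a log2 fold change of 9.38 ± 0.53 (edgeR adjusted p = 1.2e-10). It rested on 13 counts in all over the HPC libraries. Cebpa, which is needed to form GMPs, went from 1.9 to 3.19 CPM in HPCs to 27.7 to 37.9 CPM in GMPs, with no overlap, and rose by 3.54 ± 0.23 (edgeR adjusted p = 7e-10). Myc and Myb, factors of proliferating progenitors, rose by 1.92 ± 0.14 and 1.44 ± 0.14, and Cebpd by 2.62 ± 0.38. Gfi1, a repressor that favours granulocytes over monocytes, rose by 0.78 ± 0.23 (edgeR adjusted p = 0.0074). Without the M3 or the M4 GMP library that call was lost, at 0.57 (edgeR adjusted p = 0.066) and 0.63 (edgeR adjusted p = 0.051). Spi1, the gene of PU.1, was at 26.2 to 38.5 CPM in HPCs and 22.4 to 30.4 CPM in GMPs, overlapping ranges with a log2 fold change of -0.27 ± 0.16 (edgeR adjusted p = 0.17). Irf8, the factor of monocyte and dendritic fates, overlapped too, at -0.81 ± 0.44 (edgeR adjusted p = 0.12), but passed with no filter on low counts (-0.87, edgeR adjusted p = 0.0082) and when the compared libraries were fitted alone (-0.90, edgeR adjusted p = 0.0049). Irf5 fell by 1.71 ± 0.14, and Batf3, a factor of conventional dendritic cells, had no count in GMPs after 0.979 to 5.37 CPM in HPCs, at least 45.6-fold lower.

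Cytokine receptor genes moved in both directions: of 22, 10 rose and 8 fell (median 0.26). Csf2rb, the shared signalling chain of the IL-3, IL-5 and GM-CSF receptors, rose by 1.71 ± 0.11 (edgeR adjusted p = 1.1e-09), Il5ra, the eosinophil IL-5 receptor, by 3.99 ± 0.51, and Il1rl1, the IL-33 receptor of mast cells, by 4.97 ± 0.48. Csf2rb has a close neighbouring copy, Csf2rb2, so the split of reads between them is uncertain. Flt3, a receptor of earlier progenitors, fell from 398 ± 74.5 to 25.3 ± 6.37 CPM (SD, n = 4 each). The list also holds the sorting antigens Kit and Il7r. Csf1r, the receptor of macrophage colony-stimulating factor, rose by 0.78 ± 0.23 (edgeR adjusted p = 0.0084) with overlapping groups. Its call was lost without the HPC library of M3 (0.52, edgeR adjusted p = 0.064) or M5 (0.63, edgeR adjusted p = 0.051), or without the GMP library of M3 (0.52, edgeR adjusted p = 0.069), and in the fit of 47 libraries with no block (0.74, edgeR adjusted p = 0.28). Csf3r, the granulocyte colony-stimulating factor receptor, gave 56.7 to 78.3 CPM in HPCs and 46.6 to 136 CPM in GMPs, a log2 fold change of 0.33 ± 0.22 (edgeR adjusted p = 0.22). It passed the test without the HPC library of M4 (0.57, edgeR adjusted p = 0.031) or the GMP library of M4 (0.54, edgeR adjusted p = 0.038).

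Most NADPH oxidase genes rose, and monocyte genes moved in both directions. Of 7 genes of the NADPH oxidase, the enzyme that makes superoxide in phagocytes, 6 rose (median 1.27). Cybb, its catalytic subunit, was at 6.35 to 8.66 CPM in HPCs and at 59.7, 355, 319 and 419 CPM in GMPs, with M2 lowest. Among 21 tested monocyte and macrophage genes, 12 rose and 6 fell (median 0.78). F13a1, the coagulation factor XIII subunit of monocytes, rose by 6.14 ± 0.44 and Ly6c2, the surface marker of inflammatory monocytes, by 5.47 ± 0.39. The cathepsin S gene Ctss fell from 109 to 113 CPM in HPCs to 5.43 to 17.6 CPM in GMPs (log2 fold change -3.30 ± 0.27), and S100a4 fell by 4.57 ± 0.51.

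Genes of mast cells, basophils and eosinophils rose in all 19 tested members, with a median of 5.06. Prg2, the eosinophil major basic protein gene, was at 6.58, 29.1, 152 and 57.0 CPM in HPCs and at 23600, 20700, 98400 and 93500 CPM in GMPs. The M4 and M5 GMP libraries were far above the M2 and M3 GMP libraries, and all lay above every HPC library. Its log2 fold change was 10.2 ± 0.57 (edgeR adjusted p = 1.1e-10), and it was also among the 12 largest rises of all genes. Epx, eosinophil peroxidase, rose by 10.2 ± 0.52, Prg3 by 9.70 ± 0.47 and the eosinophil ribonuclease genes Ear6, Ear2 and Ear1 by 9.65 ± 0.47, 9.15 ± 0.33 and 8.92 ± 0.43. The Ear genes are near-identical copies, so the split of reads among them is uncertain. Ms4a2, the beta chain of the IgE receptor, rose from 0.116 to 1.59 CPM in HPCs to 242 to 546 CPM in GMPs. Gata2, a factor of stem cells and of the mast cell and eosinophil lineages, rose by 1.62 ± 0.16 and was the 1 member of the stem list that rose. The summed level of the list ran from 199 to 390.7 CPM in HPCs and from 29260 to 121700 CPM in GMPs, while the primary granule list ran from 3143 to 4307 and from 39350 to 105300 CPM. The part of cells already committed to the eosinophil or mast lineage in the granule results was not tested.

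The remaining largest rises were genes nearly silent in HPCs. Csrp3, a muscle LIM protein gene, had 5 counts over the 4 HPC libraries and 45.6 to 86.0 CPM in GMPs. Pdyn, which encodes the opioid precursor prodynorphin, had no count in HPCs and 0.564 to 30.5 CPM in GMPs, at least 235-fold higher over the same floor. The M5 GMP library held the 30.5 CPM, and without it the bound was 79.2-fold. Slco4c1, an organic anion transporter gene, and Ikzf3, the gene of the factor Aiolos, each had 2 counts in HPCs and means of 25.5 ± 18.1 and 20.9 ± 10.3 CPM in GMPs (SD, n = 4). Lin28a, an RNA-binding protein gene of fetal cells, had 1 count in HPCs and 12.5 ± 4.21 CPM in GMPs.

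Stem and multipotent progenitor genes fell in 23 of 25 members, with a median of -2.12. Mecom, a stem cell transcription factor and a reported MLL fusion target, was at 141, 180, 208 and 172 CPM in HPCs, 28.0 ± 3.61 in pGMs (SD, n = 4) and 3.1, 2.95, 1.61 and 1.88 CPM in GMPs. Each identifier stepped down at both transitions, and the log2 fold change of GMP over HPC was -6.19 ± 0.25 (edgeR adjusted p = 3.2e-12). Hlf, a stem cell leucine zipper factor, fell from 284 to 362 CPM to 17.1 to 25.0 CPM, a log2 fold change of -3.86 ± 0.20 (edgeR adjusted p = 4.2e-11). Mycn fell by 5.21 ± 0.26, Esam, an adhesion molecule of stem and endothelial cells, by 5.26 ± 0.27, and Robo4, a guidance receptor of stem and endothelial cells, by 8.20 ± 0.49.

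Of 20 tested genes reported as MLL fusion targets, 17 fell and 3 rose, with a median of -1.84. In control newborns, which lack the transgene and in which 21.1% of all genes were lower in GMPs and 18.6% higher, 15 of these genes fell and 3 rose, with a median of -1.93. The step of 1 member, Mecom, was lower in MLL-ENL than in controls, as were 0.692% of all genes by the test of the difference. Hoxa9 was at 86.6, 75.3, 59.0 and 65.4 CPM in HPCs and 31.5, 22.6, 28.7 and 23.1 CPM in GMPs. The groups did not overlap, and the log2 fold change was -1.42 ± 0.15 (edgeR adjusted p = 2.7e-07). Meis1, the partner of HOXA9, was at 525, 582, 652 and 677 CPM in HPCs and 167, 116, 111 and 173 CPM in GMPs (-2.12 ± 0.16, edgeR adjusted p = 6.8e-09). The fall was uneven across the Hoxa cluster. Hoxa7 changed by -0.64 ± 0.13 (edgeR adjusted p = 0.00054), Hoxa10 by -3.21 ± 0.21, Hoxa5 by -2.55 ± 0.30 and Hoxa3 by -4.27 ± 0.58. Hoxa2 and Hoxa6 were low, at 1.34 ± 0.242 and 0.646 ± 0.28 CPM in HPCs, and fell by 3.09 ± 0.56 and 2.14 ± 0.66. Both tested Hoxb genes fell as well, Hoxb4 by 1.72 ± 0.39 and Hoxb5, with 1 count left over the 4 GMP libraries, from 1.78 to 3.3 CPM in HPCs.

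The summed level of the fusion target list overlapped between the genotypes in GMPs, at 1121 to 1904 CPM with the transgene and 1421 to 1720 CPM without it. The Hoxb sum in GMPs was lower with the transgene, at 0.432 to 0.847 CPM against 1.14 to 1.79 CPM in controls, with no overlap. It covers 9 genes, of which 2 were high enough to be tested. In HPCs both sums were higher with the transgene, without overlap. The Hoxb sum there was 4.491 to 6.526 CPM against 1.465 to 2.571, and the fusion target sum 2353 to 3026 CPM against 1482 to 2144. Single members of the fusion target list were higher with the transgene in their GMP means. In GMPs Hoxa9 was at 26.5 ± 4.35 CPM with the transgene and 6.96 ± 1.76 CPM without it, Hoxa10 at 3.61 ± 0.662 and 0.503 ± 0.234, Meis1 at 142 ± 32.6 and 54.3 ± 17.2, and Skida1, a gene of the MLL fusion target list, at 8.70 ± 0.943 and 0.308 ± 0.254 CPM (SD, n = 4 each). These levels between genotypes are given as description, since the tests here are of the step within each genotype and of its difference. For the step itself, the difference between genotypes was 0.78 ± 0.21 for Hoxa9 (edgeR adjusted p = 0.052), 1.13 ± 0.34 for Hoxa10 (edgeR adjusted p = 0.076), 0.30 ± 0.22 for Meis1 (edgeR adjusted p = 0.51) and 0.61 ± 0.44 for Skida1 (edgeR adjusted p = 0.49), none past 0.05. The Hoxa9 difference passed with DESeq2 (0.74, adjusted p = 0.03) and without the HPC library of W2 (0.94, edgeR adjusted p = 0.025), the GMP library of W2 (0.86, edgeR adjusted p = 0.048) or the GMP library of M3 (0.86, edgeR adjusted p = 0.047). That of Hoxa10 passed without the GMP library of W2 (1.49, edgeR adjusted p = 0.029). Members that rose were Cdk6, a cyclin-dependent kinase gene, by 2.01 ± 0.22 (edgeR adjusted p = 6.3e-07), Dach1, a corepressor gene, by 1.96 ± 0.24 (edgeR adjusted p = 2.2e-06), and the survival gene Bcl2.

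The largest falls ended at or near 0 in GMPs. Chga, which encodes the secretory granule protein chromogranin A, was at 13.4, 23.3, 22.3 and 17.6 CPM in HPCs and had no count in GMPs, at least 293-fold lower. Ifi205, an interferon-inducible gene, and Clip3, a microtubule-associated protein gene, also had no count in GMPs, at least 256-fold and 162-fold lower. Chil5, a chitinase-like gene, fell from 69.1 ± 13.8 to 0.115 ± 0.178 CPM, and Gucy1a1, a subunit of the nitric oxide receptor, from 62.1 ± 3.89 to 0.166 ± 0.0926 CPM. Tbxa2r, the thromboxane receptor gene, Rasgrp3, a Ras exchange factor gene, and Scimp, an adaptor gene of antigen-presenting cells, had 3 to 5 counts left over the 4 GMP libraries. Wfdc2 and Cyp4b1 had 1 count each. Sdc4, a heparan sulfate proteoglycan gene, differed in timing: it was at 210 ± 77.7 CPM in HPCs, 149 ± 89.6 in pGMs and 1.04 ± 0.323 in GMPs.

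Genes of other immune lineages and of the interferon response fell. Of 24 type I interferon response genes 22 fell and none rose (median -2.02). Irf7, the regulator that amplifies interferon production, was at 256, 674, 458 and 698 CPM in HPCs and 33.9, 107, 37.8 and 136 CPM in GMPs. M2 was lowest in both populations, and the groups did not overlap, with a log2 fold change of -2.86 ± 0.17 (edgeR adjusted p = 2.2e-10). Ifi44 fell by 7.01 ± 0.31, Ifit1 by 3.39 ± 0.17 and Rsad2, the antiviral enzyme viperin, by 3.27 ± 0.18. In the dendritic cell list 15 of 18 members fell and none rose (median -3.42). Ccr9, a homing receptor gene of plasmacytoid dendritic cells and lymphoid progenitors, went from 40.7 to 55.4 CPM to 0.0847 to 1.69 CPM, and Irf4 had no count in GMPs, at least 89.4-fold lower. Without the HPC or the GMP library of M2, or with M2 left out, 1 member of this list was higher. Genes of MHC class II, the antigen-presenting complex, fell in 7 of 10 tested members and rose in 1. Cd74, the invariant chain gene, was at 2120, 979, 721 and 1570 CPM in HPCs and at 21.9, 6.33, 5.76 and 6.06 CPM in GMPs, with M2 highest in both, and fell by 7.22 ± 0.35 (edgeR adjusted p = 2.3e-11). H2-Oa, a subunit of an inhibitor of peptide loading, rose by 0.86 ± 0.16 (edgeR adjusted p = 0.0002). Summed over their lists, MHC class II ran from 1415 to 3730 CPM in HPCs and 358 to 443.2 in GMPs, and dendritic genes from 1611 to 1972 and 953.5 to 1338 CPM. The part of dendritic cells within the HPC libraries in these falls was not tested.

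Most lymphoid genes rose from HPC to pGM and fell from pGM to GMP. Between GMP and HPC, 15 of 20 lymphoid priming and B cell genes fell and 2 rose (median -2.09). The sorting antigen Il7r was among those that fell. Rag1, the recombinase of antigen receptor genes, was at 1.21 to 2.66 CPM in HPCs, 20.9 ± 8.93 in pGMs (SD, n = 4) and 0.0 to 0.094 CPM in GMPs. The step from HPC to pGM was 3.39 (edgeR adjusted p = 1.6e-05) and that from pGM to GMP -8.65 (edgeR adjusted p = 1.4e-07), steps that share the pGM libraries. From HPC to pGM, 19.9% of all genes rose and 16.9% fell, and 13 of the 20 lymphoid genes rose and 3 fell. From pGM to GMP, 12.9% of all genes rose and 15.1% fell, and 1 lymphoid gene rose and 18 fell. Dntt (terminal transferase) was among the 2 that rose from HPC to GMP, by 1.55 ± 0.45 on the log2 scale. In the T and NK cell list, 7 of 14 tested members fell and 3 rose, and Trbc2, a T cell receptor constant segment, fell from 33.6 to 61.8 CPM to 0.0 to 0.47 CPM.

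Of 20 tested erythroid genes, 17 rose and 1 fell from HPC to pGM, and none rose and 17 fell from pGM to GMP, with medians of 4.65 and -2.92. Without the pGM library of M4, 17 rose and 1 fell at the first step and 1 rose and 13 fell at the second, with medians of 3.49 and -2.21. From HPC to GMP 11 rose and 4 fell, and without the HPC library of M2 or of M5, or with M2 left out, 2 fell. Gata1, the master factor of erythroid, mast and eosinophil cells, was at 5.36 ± 1.36 CPM in HPCs, 228 ± 113 in pGMs and 180 ± 62.4 in GMPs (SD, n = 4 each), and its step from pGM to GMP of -0.32 did not pass the test (edgeR adjusted p = 0.52). Car2, carbonic anhydrase 2, fell by 5.20 ± 0.39 from HPC to GMP. The summed erythroid level was 18180 CPM in the M4 pGM library and 3394 to 3818 CPM in the other 3 pGM libraries, and ran from 2156 to 2940 in HPCs and 496.2 to 611.6 in GMPs. Erythroid cells within the pGM libraries and their part in these values were not tested. Of 17 tested megakaryocyte genes 9 fell and 4 rose, among them the sorting antigen Itga2b. Slc35d3, a gene of platelet dense granules, fell by 4.47 ± 0.36 on the log2 scale. Without the HPC library of M2, the GMP library of M2 or the GMP library of M5, and with M2 left out, 2 megakaryocyte genes rose.

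Genes of protein folding, ribosome biogenesis and DNA replication rose from HPC to GMP, at different transitions. All of the 20 of 22 endoplasmic reticulum folding genes that passed the test rose (median 1.31), as did 21 of 24 ribosome biogenesis genes (median 0.71) and 20 of 26 DNA replication genes (median 0.61), in which 1 fell. Calr, an endoplasmic reticulum chaperone gene, was at 507, 622, 637 and 514 CPM in HPCs and 2650, 3510, 2440 and 4020 CPM in GMPs, and rose by 2.44 ± 0.16 (edgeR adjusted p = 7.3e-10). P4hb, protein disulfide isomerase, rose by 2.15 ± 0.13, Nhp2, a small nucleolar ribonucleoprotein gene, by 1.22 ± 0.11 and Cdc45, a helicase subunit gene, by 0.91 ± 0.11. From HPC to pGM, 22 ribosome biogenesis and 22 replication genes rose and none fell. From pGM to GMP, no ribosome biogenesis gene rose and 1 fell, and 1 replication gene rose and 4 fell. Of the folding genes, 10 rose at the first step and 19 at the second, and the first count was 6 without the HPC or the pGM library of M5 and 5 without the pGM library of M3. Secondary granule genes had 3 higher and 6 lower at the first step and 22 higher at the second. Mitosis genes split, with 4 higher, 6 lower and 12 not past the test. Without the GMP library of M5, or with M2 left out, 2 of them rose. Cdkn1c, an inhibitor of cyclin-dependent kinases in quiescent stem cells, fell by 3.89 ± 0.29.

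Genes of fetal and neonatal blood cells fell in 11 of 16 tested members and rose in 4 (median -2.53). Hmga2, a chromatin protein gene of fetal stem cells, went from 179 to 320 CPM in HPCs to 59.7 to 80.4 CPM in GMPs, and Igf2bp1 and Igf2bp2, RNA-binding protein genes, fell by 3.37 ± 0.33 and 1.56 ± 0.14. Gpc3, a glypican gene, rose from 2.02 to 5.47 CPM to 62.1 to 65.7 CPM. Among markers of liver tissue, 2 of 12 tested hepatocyte genes fell and 1 rose. Their summed level ran from 253.3 to 343.5 CPM in HPCs and 86.21 to 103.7 CPM in GMPs, of which Hnf4a alone was 233 ± 46.8 and 60.8 ± 7.58. Of 8 tested stromal and endothelial genes, 5 fell.

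Control newborns took the same step for most of these genes. In controls 18.6% of genes were higher in GMPs and 21.1% lower. Genes called in both genotypes in the same direction numbered 4798, which is 60.7% of the MLL-ENL calls and 83.5% of the control calls, and 27 were called in opposite directions. Across genes, which are not independent replicates, the log2 fold changes of the genotypes had a Pearson r of 0.87 and a Spearman rho of 0.81. In controls, 12 of 15 primary granule genes rose (median 2.92), 20 of 23 secondary granule genes rose (median 6.24), and 19 of 25 stem genes fell (median -1.88). Mast cell, basophil and eosinophil genes rose in 16 of 19 members with a median of 2.68, MHC class II genes fell in 9 of 10 (median -4.80), and monocyte genes divided into 8 higher and 8 lower (median -0.40). By the test of the difference, the step was higher in MLL-ENL for 4 of 19, 7 of 10 and 8 of 21 members of these lists. No member had a lower step, and 2.3% of all genes had a higher one. The 4 were Cpa3, Mcpt4, Fcer1a and Prss34, while the eosinophil genes Prg2 and Epx were not called.

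**Figure D4:**
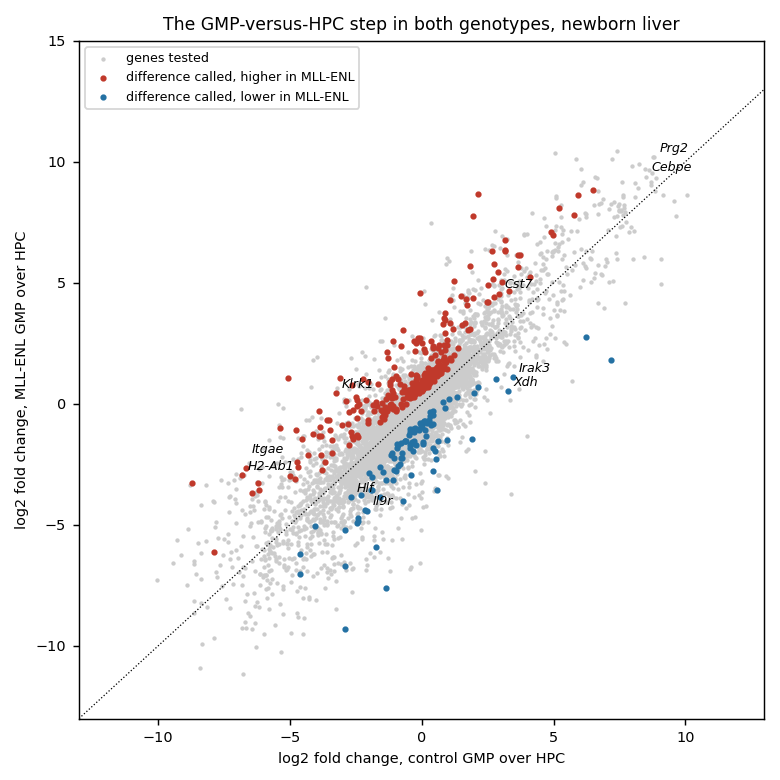
Log2 fold change of GMP over HPC in MLL-ENL newborns (vertical) against controls (horizontal) for the 14447 genes tested; red and blue genes have a called difference between genotypes and the dotted line marks equal change. Most genes lie along the line, and 333 red and 100 blue genes lie off it.

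The difference of the step between genotypes, tested as an interaction, passed for 433 genes: 333 with a higher value in MLL-ENL (2.3%) and 100 with a lower value (0.692%). This count moved by more than 1.5 times with single libraries. It was 261 without the control HPC library of W2, 650 without that of W5 and 264 without the control GMP library of W5. Without an MLL-ENL HPC library it was 283 (M2), 238 (M3) and 189 (M5), and without an MLL-ENL GMP library 253 (M4) and 226 (M5). For 390 of the 433 genes (90.1%) the genotypes lay further apart in HPCs than in GMPs, measured as the absolute log2 ratio of mean CPM with 0.1 added, against 63.4% of all genes. The median of that ratio was 0.95 in HPCs and 0.22 in GMPs for these genes, and 0.31 and 0.20 over all genes. These are descriptions of the called genes, with no test. Of the calls, 76.9% had the higher value in MLL-ENL, a share of 59.0% with no filter on low counts, 64.6% with DESeq2, 63.4% without the control HPC library of W5 and 84.1% in the fit of 47 libraries.

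**Figure D5:**
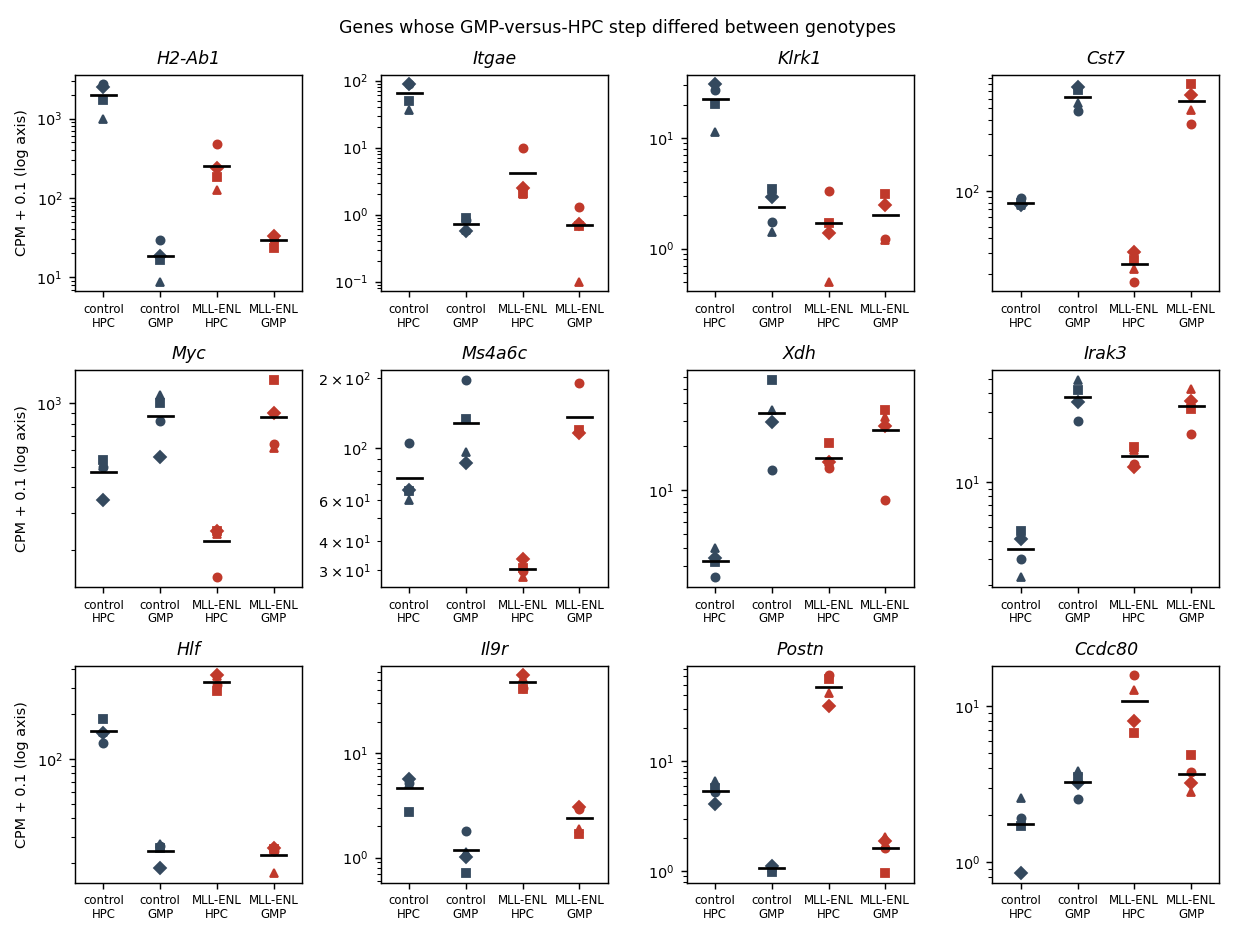
CPM plus 0.1 on a log axis of 12 genes with a called difference of the step, in control (dark) and MLL-ENL (red) HPC and GMP libraries; symbols are identifiers 2 to 5 and bars are means. The genotypes are nearer to each other in GMPs than in HPCs, as for H2-Ab1 with means of 1970 and 255 CPM in HPCs and 18.2 and 29.5 CPM in GMPs.

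Among genes whose difference held without each HPC or GMP library in turn and without M2, several began lower in MLL-ENL HPCs. Whole lists did so too. Summed MHC class II genes ran from 1415 to 3730 CPM in MLL-ENL HPCs and 9855 to 24990 CPM in control HPCs. Dendritic genes ran from 1611 to 1972 and 3376 to 7130 CPM, and monocyte genes from 1908 to 2238 and 4100 to 6645 CPM. The part of the cell make-up of the HPC libraries in these differences was not tested. H2-Ab1, a beta chain of MHC class II, was at 124 to 473 CPM in MLL-ENL HPCs and 1970 ± 781 CPM (SD, n = 4) in control HPCs, and the step differed by 3.84 ± 0.37 (edgeR adjusted p = 1.5e-05). Itgae, an integrin of dendritic and T cells, differed by 4.01 ± 0.63 (edgeR adjusted p = 0.0016), with 1.9 to 9.82 CPM in MLL-ENL HPCs and 65.1 ± 26.3 CPM in control HPCs. Klrk1, the NKG2D receptor gene, differed by 3.69 ± 0.53 (edgeR adjusted p = 0.00074). It fell in controls and gave 0.43 ± 0.40 in MLL-ENL (edgeR adjusted p = 0.38), which became 1.01 without the GMP library of M2 (edgeR adjusted p = 0.014) and 0.99 with M2 left out (edgeR adjusted p = 0.028). Cst7 rose by 4.55 ± 0.17 in MLL-ENL and by 2.92 in controls, a difference of 1.63 ± 0.21 (edgeR adjusted p = 0.00025), from 24.0 ± 5.7 CPM in MLL-ENL HPCs and 80.0 ± 5.36 CPM in control HPCs. The same sign held for the steps of Myc (1.07 ± 0.19, edgeR adjusted p = 0.005), Ms4a6c, a macrophage membrane gene (1.39 ± 0.24, edgeR adjusted p = 0.0031), Irf5 (1.02 ± 0.19, edgeR adjusted p = 0.0058), H2-Oa (1.23 ± 0.23, edgeR adjusted p = 0.0056) and Csf2rb (0.77 ± 0.16, edgeR adjusted p = 0.012). Without the replicate block, 10 of the 24 called differences named in this comparison were lost, among them those of Myc (edgeR adjusted p = 0.12), Ms4a6c (edgeR adjusted p = 0.067) and Csf2rb (edgeR adjusted p = 0.11). With the compared libraries fitted alone 6 were lost, Csf2rb among them (edgeR adjusted p = 0.054). In the fit of 47 libraries with no block, which adds the libraries of 10 weeks, 20 of the 24 were lost, and those of Itgae, H2-Ab1, Xdh and Irak3 were kept.

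Other genes began higher in MLL-ENL HPCs. Il9r, the interleukin 9 receptor gene, was at 41.3 to 55.1 CPM in MLL-ENL HPCs and 4.53 ± 1.29 CPM (SD, n = 4) in control HPCs, with 2.28 ± 0.694 and 1.07 ± 0.459 CPM in GMPs, and its step differed by -2.36 ± 0.36 (edgeR adjusted p = 0.0012). Hlf started at 329 ± 38.2 CPM against 153 ± 23.8 and ended at 22.6 ± 3.7 against 23.9 ± 3.67, a difference of -1.17 ± 0.26 (edgeR adjusted p = 0.019). Irak3, a brake on Toll-like receptor signalling, and Xdh, xanthine dehydrogenase, rose in controls by 3.47 and 3.28. In MLL-ENL Irak3 rose by 1.10 ± 0.20 and Xdh gave 0.52 ± 0.28, differences of -2.36 ± 0.30 (edgeR adjusted p = 0.00023) and -2.76 ± 0.42 (edgeR adjusted p = 0.0011). Xdh passed the test in MLL-ENL without the HPC library of M2 (0.71, edgeR adjusted p = 0.05), without the GMP library of M2 (0.84, edgeR adjusted p = 0.011) and with M2 left out (0.83, edgeR adjusted p = 0.018). Postn, a matrix protein gene, and Ccdc80, a secreted protein gene, differed by -2.49 ± 0.49 (edgeR adjusted p = 0.0084) and -2.47 ± 0.48 (edgeR adjusted p = 0.0086). Postn is also a stromal marker, and the summed stromal list ran from 188.7 to 250.3 CPM in MLL-ENL HPCs and 90.03 to 117.8 CPM in control HPCs; its part in this difference was not tested.

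The rest of the largest differences depended on single libraries. Fcer1a, the alpha chain of the IgE receptor, had 2 counts over the MLL-ENL HPC libraries and a difference of 6.54 ± 1.32 (edgeR adjusted p = 0.011), which without the HPC library of M5 was 5.48 (edgeR adjusted p = 0.07). Mcpt4, a mast cell protease gene, was at 45.7 CPM in the M2 GMP library and 1.22 to 5.34 CPM in the others. Its difference of 3.82 ± 0.89 (edgeR adjusted p = 0.026) lost its call without the MLL-ENL HPC library of M2, M3 or M4, the control GMP library of W3, the MLL-ENL GMP library of M2 or M4 or the whole of M2, at 2.70 to 3.87 and edgeR adjusted p up to 0.18. Gramd2 (3.70 ± 0.86, edgeR adjusted p = 0.025) lost it without the HPC library of W2, M2 or M5 or the GMP library of W5 or M5, at 3.07 to 3.72 and edgeR adjusted p up to 0.11. Xcr1, a chemokine receptor gene of dendritic cells (3.62 ± 0.82, edgeR adjusted p = 0.022), lost it without the HPC library of W2 or M3 or the GMP library of W5, M3 or M4, at 3.22 to 3.53 and edgeR adjusted p up to 0.081. Pdgfd (-3.77 ± 0.85, edgeR adjusted p = 0.022) lost it without the HPC or GMP library of W2 or the GMP library of M4, at -3.70 to -3.13 and edgeR adjusted p up to 0.072. Wfdc18 (-2.38 ± 0.54, edgeR adjusted p = 0.023) lost it without the HPC library of M5 or the GMP library of W3 or W5, at -2.31 to -1.95 and edgeR adjusted p up to 0.11. Hepacam2 (5.47 ± 1.37, edgeR adjusted p = 0.037) and Hgfac (-2.44 ± 0.61, edgeR adjusted p = 0.036) each lost the call in 12 of 17 such fits. For Hepacam2 these were the HPC libraries of W3, W4, M2, M3 and M5, the GMP libraries of W2, W4, W5, M2, M3 and M5, and the whole of M2, at 4.41 to 5.56 and edgeR adjusted p up to 0.35. For Hgfac they were the HPC libraries of W2, W3, W5, M2, M3 and M5, the GMP libraries of W3, W5, M3, M4 and M5, and the whole of M2, at -2.65 to -1.94 and edgeR adjusted p up to 0.11. Mecom, the fusion target whose step differed, fell by 6.19 in MLL-ENL and by 4.60 in controls, a difference of -1.60 ± 0.38 (edgeR adjusted p = 0.027). It lost the call without the HPC library of W4, M4 or M5 or the GMP library of W3, W4, M4 or M5, at -1.56 to -1.30 and edgeR adjusted p up to 0.14. Without the replicate block the edgeR adjusted p was 0.17 for Hepacam2, 0.16 for Pdgfd, 0.13 for Mcpt4, 0.12 for Xcr1, 0.11 for Wfdc18, 0.099 for Hgfac and 0.051 for Mecom. With the compared libraries alone it was 0.095 for Hgfac, 0.086 for Mecom, 0.061 for Mcpt4, 0.056 for Wfdc18 and 0.053 for Pdgfd. DESeq2 did not call Hepacam2 (DESeq2 adjusted p = 0.063) and called the other 23.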

How the data were processed

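RNA of sorted newborn liver progenitors was measured in 23 libraries. Per the labels' protocols, extraction used Qiagen RNeasy micro plus columns and Clontech SMARTer amplification. The authors deposited a table of raw read counts, with 41388 mouse genes and the human transgene genes. Per the submitters' processing notes, the authors used STAR 3.0.4, Subread and featureCounts 1.4.5; for build, annotation and strandedness nothing was given in the sources used, so antisense and overlapping genes cannot be told apart. Symbols were matched for 40254 genes from a table of Ensembl names.

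The 23 libraries were fitted together with edgeR 4.0.16 (TMM scaling, filterByExpr, quasi-likelihood test) in R 4.3.3, with the identifier as a block and the population within each genotype as the effect; 14447 genes remained, and p-values were adjusted by Benjamini-Hochberg per comparison at 0.05. The pairing comes from the identifiers in the labels. Deviations from the group means correlated between the HPC and GMP library of each MLL-ENL identifier at 0.493 (M2), 0.145 (M3), 0.155 (M4) and 0.233 (M5), and every one correlated best with its own identifier. For W2 to W5 the values were 0.301, 0.061, -0.074 and 0.114. The transgene was tested with exact permutations in scipy 1.17.1. Libraries of one group differed by more than sampling noise (chi-square per degree of freedom at least 19.64). Alternatives were RLE scaling, no filter, DESeq2 1.42.0, no block, other sets of libraries and leaving out single libraries; leaving out M2 as a whole was chosen after seeing the data.

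Members and gene lists were chosen with earlier results of these data known. Named genes are the 12 largest rises and 12 largest falls (at least 10 CPM in the higher group, same sign in 4 pairs, no overlap, no predicted gene models, sex-linked genes or receptor segments), the 8 largest differences each way, up to 5 members per list with the smallest p in the main direction and 2 in the other, and a fixed set of HOX, stem and granulocyte genes. Promoters are RefSeq, GRCm38.p6. Some genes that the rule selects are not reported here.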

Additional observations from a re-analysis of the deposited data

Results flagged for a closer look

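Among 259 groups of 4 libraries, 18 values stood apart from the other 3 by Dixon's criterion, where chance flags about 1 in 20 groups, or 12.9 here. The following lay in M2. Myc was at 149 CPM in the M2 HPC library and 240 to 248 in the other 3. Mcpt4 was at 45.7 CPM in the M2 GMP library and 1.22 to 5.34 in the other 3. Lin28a was at 6.21 CPM in the M2 GMP library and 14.2 to 15.2 in the other 3. Cybb was at 6.35 CPM in the M2 HPC library and 8.31 to 8.66 in the other 3. Ms4a6c was at 191 CPM in the M2 GMP library and 116 to 120 in the other 3. Cd74 was at 21.9 CPM in the M2 GMP library and 5.76 to 6.33 in the other 3. H2-Eb1 was at 4.23 CPM in the M2 GMP library and 0.932 to 1.44 in the other 3. Ciita was at 13.6 CPM in the M2 HPC library and 3.17 to 4.73 in the other 3. Itgae was at 9.82 CPM in the M2 HPC library and 1.9 to 2.39 in the other 3. Pdgfd was at 20 CPM in the M2 HPC library and 6.91 to 8.98 in the other 3. Kmt2a was at 42.2 CPM in the M2 GMP library and 17.2 to 20.5 in the other 3.

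The rest lay in other identifiers. Cebpa was at 1.9 CPM in the M3 HPC library and 2.99 to 3.19 in the other 3. Irf5 was at 69.6 CPM in the M4 HPC library and 79.9 to 80.9 in the other 3. Ccr9 was at 40.7 CPM in the M4 HPC library and 53.2 to 55.4 in the other 3. Il1rl1 was at 2.42 CPM in the M4 HPC library and 0.698 to 0.982 in the other 3. Hlf was at 17.1 CPM in the M4 GMP library and 23.8 to 25.0 in the other 3. Trbc2 was at 61.8 CPM in the M3 HPC library and 33.6 to 37.6 in the other 3. Rfc2 was at 632 CPM in the M3 GMP library and 550 to 564 in the other 3.

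The log2 step from HPC to GMP differed between genotypes, by the edgeR test of the interaction, for 24 genes given in the text. The log2 difference, MLL-ENL minus control, was positive for these genes: Fcer1a 6.54, Hepacam2 5.47, Itgae 4.01, H2-Ab1 3.84, Mcpt4 3.82, Gramd2 3.70, Klrk1 3.69, Xcr1 3.62, Cst7 1.63, Myc 1.07, Irf5 1.02, Ms4a6c 1.39, H2-Oa 1.23, Csf2rb 0.77. It was negative for these: Pdgfd -3.77, Xdh -2.76, Postn -2.49, Ccdc80 -2.47, Hgfac -2.44, Wfdc18 -2.38, Irak3 -2.36, Il9r -2.36, Mecom -1.60, Hlf -1.17. How these calls depend on single libraries stands beside them in the text.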

How the results depend on the processing

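Counts of called genes moved by more than 1.5 times when at least 2-fold was also required: to 4021 from 7900 (MLL-ENL GMP against HPC), 2985 from 5746 (control), 2164 from 5321 (MLL-ENL pGM against HPC) and 2157 from 4047 (MLL-ENL GMP against pGM). In the other alternatives run these 4 counts stayed within 1.5 times, and without single libraries they lay at 6936 to 7460, 4778 to 5428, 4254 to 4564 and 3156 to 3900. Without the replicate block, that is without the pairing by identifier, they were 6953, 4803, 4139 and 3222, and the difference between genotypes fell to 178 genes from 433. That difference gave 729 with no filter on low counts, 813 with DESeq2, 69 in 47 libraries with no block, 170 when the compared libraries were fitted alone, 245 with at least 2-fold and 189 to 650 without single libraries; the cause was not tested. The transgene difference of -10.5 CPM kept its sign and was -7.08 CPM with TMM scaling (exact permutation p = 0.0286); pairs tested by sign flips gave an exact p = 0.125, and leaving out single libraries gave -11.5 to -8.68 with an exact p = 0.0571, each the smallest those numbers of samples allow. For the MLL-ENL step, 147 of 154 named genes kept direction and side of the threshold in every alternative that tested them; Pdyn, Hoxa6 and Hepacam2 were not tested in some. For the 24 named differences between genotypes, 4 kept the call in all 23 alternatives and 20 lost it in at least 1. Over genes and alternatives 92 of 552 values lost it and none reversed. Of the list counts, 20 of 780 moved. These were the dendritic, erythroid, megakaryocyte and mitosis counts given in the text, the erythroid count higher (7 in 47 libraries), the T and NK count lower (4 with the compared libraries alone) and a few small counts under no filter or no block. For MLL-ENL pGM against HPC, the higher share of the calls was 54.1% in the main fit and 46.5% with RLE scaling. At 3 counts over a group, the floor was 0.0433 CPM in HPCs and 0.0653 CPM in GMPs, which limits folds for genes at 0.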
